A study of Mus musculus with 42 samples.

Results

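The comparison described here is that of mouse bone marrow mesenchymal stromal cells (MSCs) exposed to tributyltin (TBT) with the same cells given only the solvent, read out as RNA. Its members were chosen by the sample labels alone: the 6 RNA libraries labelled TBT and the 6 labelled DMSO, 12 of the 42 samples of the series. The cells, a commercial stock from C57BL/6 mice, had been grown out of long-bone marrow and were used at passage 9 to 10; the number of donor mice is not given in the labels. They were plated at 15000 cells per cm2, left for 24 h and then treated for 48 h with dimethyl sulfoxide (DMSO, 0.1%) or with 50 nM TBT. Parallel wells received 100 nM rosiglitazone or 100 nM AGN194204 for the same time, 6 libraries each, and are used only where the TBT response is set beside them. The labels name no other agent, and whether the 6 replicates of a group were separate cultures is not stated there. A p-value here therefore reads the spread among these libraries, and that spread may be technical.

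TBT is an organotin biocide that binds nuclear receptors, among them the retinoid X receptor (RXR) and the peroxisome proliferator-activated receptor γ (PPARγ). RXR is the obligate partner of PPARγ, of the liver X receptors (LXR), which sense oxysterols, and of the retinoic acid and vitamin D receptors, so an RXR ligand can act on several programmes of genes. In marrow stroma PPARγ drives the formation of fat cells, while the same stromal cells also make matrix, bone-forming descendants and signals for blood cells.

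TBT and DMSO libraries held 4023214 to 5347365 and 4269329 to 5087215 counts on genes, and the total did not differ between the groups past the threshold (exact two-sided permutation test, p = 0.645). Spike-in counts per 100 gene counts were 0.326 to 0.453 under TBT and 0.376 to 0.502 in DMSO (exact permutation test, p = 0.294). On the first principal component of log2 CPM (counts scaled to a common library size), with 26.1% of the variance, TBT libraries lay between 12.2 and 19.1 and DMSO libraries between -18.8 and -12.3. TBT library 2 stood apart in several measures: it was the deepest, with the fewest spike-in counts per gene count, the most reads outside genes (24.3%, against 20.9% to 22.5% in the other TBT libraries) and the lowest mitochondrial share (0.267%, against 0.299% to 0.355%). Library 2 was likewise the deepest of its group in DMSO, rosiglitazone and AGN194204 (5087215, 4601891 and 4877089 counts). It also had the lowest mitochondrial share there (0.288%, 0.316% and 0.302%). Counts over gene lists were therefore also made without TBT library 2. Of 16 stromal and fibroblast markers 15 passed the filter on low counts, with Pdgfra at 105, 115 and 132 CPM in DMSO and 116, 123 and 130.4 CPM under TBT (lowest, median and highest of 6 libraries, here and below). Lum, also a stromal marker, was at 0 counts in all 12 libraries, and Lepr, a marker of marrow reticular cells, had 8 counts over the DMSO and 11 over the TBT libraries. Markers of other cell types were detected in part. Of the macrophage and leukocyte list 3 of 15 passed the filter and none was called, with a summed level of 54.97 to 62.2 CPM in DMSO and 57.5 to 69.03 CPM under TBT, while Adgre1 and Tyrobp were at 0 counts. The chondrocyte list summed to 96.7 to 127 CPM in DMSO and 75.6 to 99.01 CPM under TBT (2 of 13 passed, 1 called lower; Col9a1, Matn1 and Hapln1 at 0) and the osteoblast and osteocyte list to 278 to 308 CPM in DMSO and 253 to 295 CPM under TBT (3 of 10 passed, 1 called lower; Mepe at 0). The lists for T, NK and B cells, endothelium, basophils and mast cells, erythroid cells, epithelium and liver, and muscle and nerve had 1 or 2 members past the filter each. They summed to at most 20.6 CPM in any TBT or DMSO library, with Cd3g, Tie1, Kit, Slc4a1, Alb and Myog at 0. Others had counts under the filter, such as Kdr (28 over DMSO, 19 over TBT), Foxp3 (30 and 25) and Alas2 (16 and 13). The 1 tested erythroid marker was called higher. In the endothelial, basophil and mast cell, and epithelial and liver lists 1 of 2 was called lower, the endothelial call ending with spike-in scaling. None was called for T, NK and B cells or for muscle and nerve. The part of these cell types in the results below was not tested.

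TBT changed a large part of the transcriptome by small steps. Of 12529 genes tested, 1878 (15%) were called higher and 1745 (13.9%) lower under TBT, 28.9% in all (edgeR quasi-likelihood test, Benjamini-Hochberg adjusted p under 0.05). With libraries scaled to the spike-in RNA in place of the gene counts, the split was 1802 higher (14.4%) and 293 lower (2.34%), so the calls of most falls depended on the scaling, while the median of all genes moved from -0.01 to 0.08 on the log2 scale. The median gene called higher rose 1.25-fold and the median gene called lower fell 1.18-fold. Rises reached further than falls: 156 genes rose and 44 fell by at least 2-fold, 26 and 5 by at least 4-fold, and 5 and 0 by at least 8-fold. All 6 TBT libraries lay above all 6 DMSO libraries for 6.73% of genes and below them for 4.98%. Counts over gene lists below are to be read beside these shares of all genes.

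The size of the called changes differed with the range of read numbers in which a gene lay. The median absolute log2 change of called genes was 0.83 under 10 CPM and 0.19 at 100 CPM and over. Genes with few reads pass the threshold only with larger estimated changes, and the part of this in the difference was not tested. CPM are not divided by transcript length, so these classes order genes by reads and not by transcripts. Among 2523 genes with a mean under 10 CPM over the 24 RNA libraries, 225 were called higher and 150 lower, and 93 and 35 of these by at least 2-fold. Among 3191 genes at 100 CPM and over, 635 were called higher and 700 lower, but 11 rose and 0 fell by 2-fold. The mean includes the treated libraries, so a large rise helps a gene into this class and a large fall helps it out. In the plot of size against level the 2-fold changes lie mostly toward low levels.

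**Figure D1:**
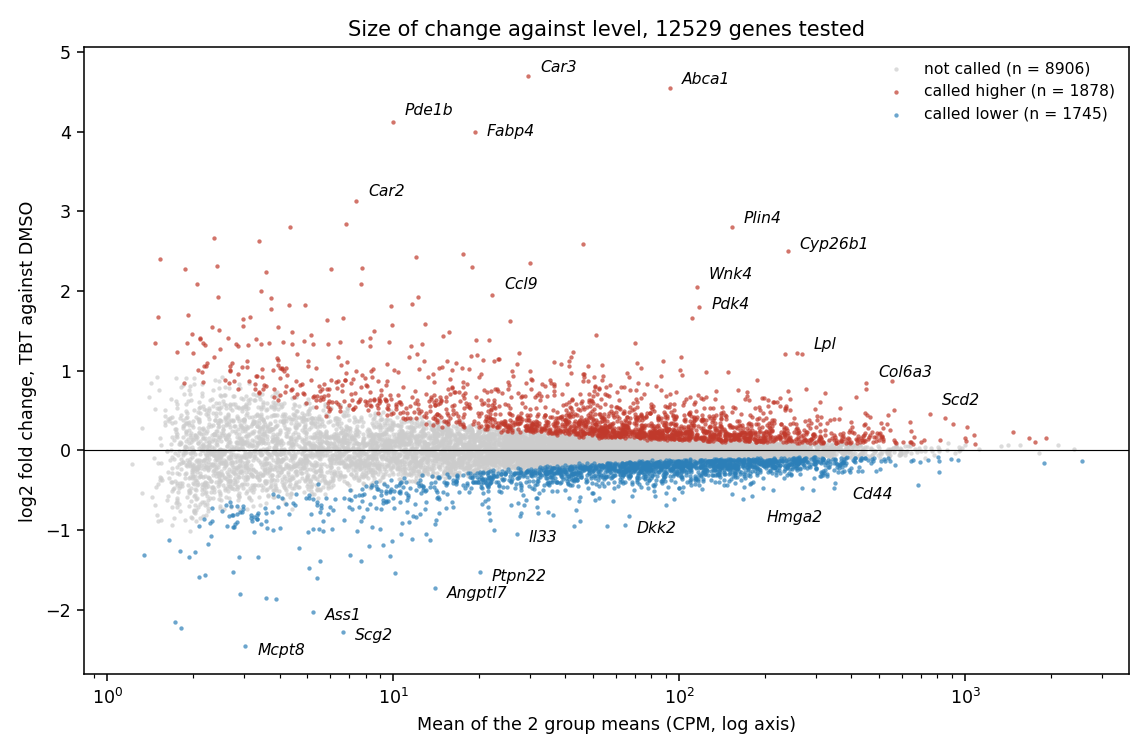
Fitted log2 fold change of TBT against DMSO (vertical axis) by the mean of the 2 group means in CPM (log horizontal axis) for each gene tested. Red points are the 1878 genes called higher, blue points the 1745 called lower and grey points the rest, and Abca1, Plin4 and Cyp26b1 stand out as large rises of genes near or above 100 CPM.

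Genes for the uptake and storage of lipid rose. Of 30 tested members of this list, 17 were called higher and 0 lower, with a median of 0.23 against -0.01 over all genes (log2), and the same counts with spike-in scaling and, for rises, without TBT library 2, where 1 member was called lower. Fabp4, which carries fatty acids inside fat cells and macrophages, was at 1.37, 1.96 and 3.57 CPM in DMSO and 30.4, 36.8 and 42.6 CPM under TBT, with no overlap. Plin4, a coat protein of lipid droplets, was at 33.4, 35.9 and 46.3 CPM in DMSO and 235, 271 and 281 CPM under TBT, again with every TBT library above every DMSO library. Lpl, the lipase that frees fatty acids from circulating lipoproteins, stood at 157, 161 and 169 CPM in DMSO and 362, 370.4 and 397 CPM under TBT, a rise of 1.21 ± 0.04 (log2 fold change ± SE, n = 6 per group, here and below). Angptl4, a secreted inhibitor of Lpl, rose by the same 1.21 ± 0.04, from a median of 143 to 335 CPM. The enzymes that release stored fat rose as well, the hormone-sensitive lipase Lipe by 0.85 ± 0.12 and the triglyceride lipase Pnpla2 by 0.61 ± 0.05, while the monoglyceride lipase Mgll, at 0.69 ± 0.34, was not called (adjusted p = 0.132, edgeR). Plin2 rose by 0.47 ± 0.06 and the lipoprotein receptor Vldlr by 0.69 ± 0.08.

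Of 15 markers of mature adipocytes 3 passed the filter on low counts, Car3, Fabp4 and Lipe, and all 3 were called higher under both scalings. Car3 and Fabp4 did not reach the filter's minimum in every DMSO library. They passed it through the treated groups, where they were high, so their calls are in part built in by the filter. The summed level of the list was 21.1 to 30.96 CPM in DMSO and 126 to 155 CPM under TBT, or 464% to 572% of the DMSO median, with no overlap. Several genes of mature fat cells lay under the filter on low counts and had no place in the main test. Cd36, the fatty acid transporter, had 0 counts in every DMSO library and 16, 22, 15, 8, 8 and 11 counts in TBT libraries 1 to 6, which is at least 27.4-fold higher against a floor of 3 counts over the DMSO group (counting error only). Cidec, which enlarges lipid droplets, had 2 counts over the DMSO and 48 over the TBT libraries, the glycerol channel Aqp7 11 and 50, and the droplet coat protein Plin1 1 and 14. Each of these 4 passed the threshold when no filter was applied (adjusted p = 9.93e-13, 8.93e-07, 0.00163 and 0.0321, edgeR). The secreted products of mature fat cells did not appear: Adipoq had 1 and 0 counts, Lep 0 and 0, and Cfd (adipsin) 5 and 0, where 3 counts over the TBT group correspond to 0.113 CPM. In bulk RNA, more cells with a transcript and more transcript per cell cannot be told apart, for these and all other genes.

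**Figure D2:**
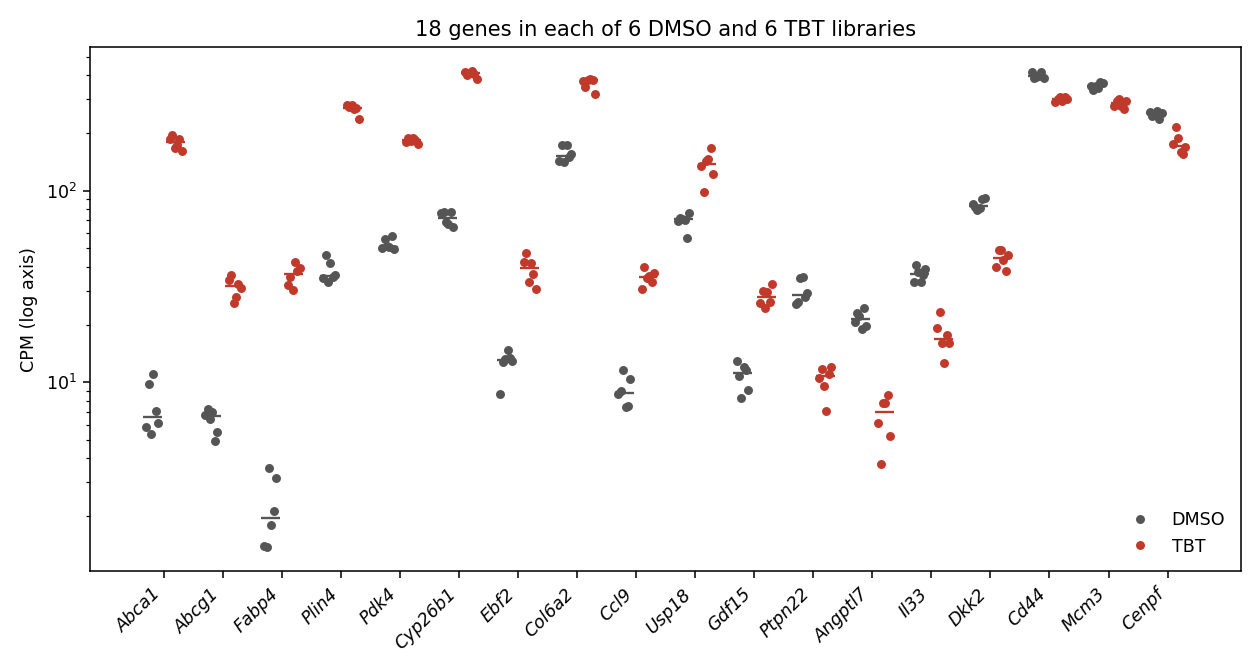
CPM (log axis) of 18 genes in each of the 6 DMSO (grey) and 6 TBT (red) libraries, with a bar at the median of each group. For all 18 genes the 2 groups do not overlap, and Usp18, Il33 and Cenpf show the wider spread of their TBT libraries.

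The enzymes that burn fatty acids rose together by small amounts. Of 32 tested genes of fatty acid oxidation, 23 were called higher and 0 lower, 24 and 0 with spike-in scaling, with a median of 0.26. The summed level of the list was 2114, 2150.4 and 2184 CPM in DMSO and 2641, 2795 and 2867 CPM under TBT, with no overlap. Pdk4, a kinase that turns pyruvate away from mitochondrial oxidation, changed most, at 49.6, 51.1 and 57.9 CPM in DMSO and 174, 183 and 189 CPM under TBT (1.79 ± 0.05). Cpt1a, which loads fatty acids onto carnitine for entry into mitochondria, rose by 0.60 ± 0.05, from a median of 169.6 to 259 CPM, and its partner Cpt2 by 0.38 ± 0.09. The carnitine transporter Slc22a5 rose by 1.01 ± 0.16, and the uncoupling protein Ucp2 by 0.56 ± 0.04. Rises included both compartments of fat oxidation, with Hadhb of mitochondria at 0.42 ± 0.10 and the peroxisomal gene Pex11a at 1.04 ± 0.14. In contrast, the nuclear-encoded subunits of the respiratory chain and ATP synthase showed 0 of 77 higher and 3 lower, which became 4 and 0 with spike-in scaling and 6 and 4 without TBT library 2.

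Cholesterol export genes held the largest change among genes with a mean of 100 CPM and over. That mean is taken over the 24 RNA libraries, so a rise under the ligands helps a gene into the class, and this rank is in part built in. Of 18 tested LXR targets and export genes, 10 were called higher and 1 lower (9 and 0 with spike-in scaling), with a median of 0.28. Abca1, the pump that loads cellular cholesterol onto apolipoprotein A-I, stood at 5.35, 6.61 and 11.1 CPM in DMSO and 161, 179 and 194 CPM under TBT. The gap between the highest DMSO and the lowest TBT library was wide for this gene. Abcg1, which exports cholesterol to high-density lipoprotein, was at 4.94, 6.62 and 7.25 CPM in DMSO and 25.8, 31.7 and 36.3 CPM under TBT, a rise of 2.30 ± 0.13. Nr1h3, which encodes LXRα, rose by 1.31 ± 0.17, while Nr1h2, which encodes LXRβ, did not pass the threshold at 0.04 ± 0.05 (adjusted p = 0.6, edgeR). The lysophospholipid acyltransferase Lpcat3 rose by 0.75 ± 0.04, the lipogenic factor Srebf1 by 0.66 ± 0.06, the desaturases Scd1 and Scd2 by 0.46 ± 0.03 and 0.45 ± 0.03, and Mylip, which marks the LDL receptor for degradation, by 0.46 ± 0.11. Apoe, also an LXR target in other tissues, was not called, at -0.24 ± 0.27. Among 24 tested genes of cholesterol synthesis, 11 were called higher and 0 lower (10 and 0 with spike-in scaling). The largest of these rises, 0.48 ± 0.05, was that of Insig1, the sterol sensor that holds back the pathway, followed by the synthetic enzymes Lss (0.30 ± 0.05) and Hsd17b7 (0.29 ± 0.07).

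In the authors' deposited table of H3K4me3 peaks that differed between DMSO and TBT, the peak with the smallest FDR (1.58e-14) lay over Abca1 at chr4:53151200-53162599, with a log2 concentration of 7.28 in DMSO and 8.87 under TBT. The 250 bases before the Abca1 start in the promoter table lie in this peak (chr4:53159896-53160145, reverse strand, GRCm38.p6, RefSeq). They are shown because this promoter carried both the largest RNA change among genes with a mean of 100 CPM and over and that peak. This start lies inside the RefSeq gene span (chr4:53030789-53159988), so the window overlaps the gene in part. The letters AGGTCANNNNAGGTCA of an ideal LXR and RXR site, searched on both strands, are not in this window. Within 250 bases before to 50 after a start, 0.0148% of the 27025 genes in the promoter table hold them. Among the 9028 tested genes with an entry the share is 0%, so their absence does not set Abca1 apart from any other tested gene. No mismatch was allowed and looser forms of the site were not searched for. The absence of these exact letters therefore does not mean that the window lacks an LXR and RXR site.
Abca1: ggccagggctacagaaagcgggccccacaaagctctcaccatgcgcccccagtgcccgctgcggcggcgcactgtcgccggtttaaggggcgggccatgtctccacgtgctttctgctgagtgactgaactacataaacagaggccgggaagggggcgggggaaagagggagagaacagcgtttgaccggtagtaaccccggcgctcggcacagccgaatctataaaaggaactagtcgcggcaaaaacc

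Retinoid genes moved in both directions. Of 19 tested, 6 were called higher and 2 lower (6 and 1 with spike-in scaling and of 20 tested without TBT library 2). Cyp26b1, which degrades retinoic acid, stood at 64.7, 72.2 and 77.2 CPM in DMSO and 382, 411 and 420.0 CPM under TBT, with a narrow spread in both groups. Dhrs3 and Dhrs9, enzymes that convert retinol and retinal, rose by 1.03 ± 0.13 and 0.91 ± 0.09, and Rarres2, which encodes the chemoattractant chemerin, by 2.63 ± 0.35. The retinoic acid-binding proteins went the other way, Crabp1 falling by 0.38 ± 0.06 and Crabp2 by 0.53 ± 0.17, the latter not called with spike-in scaling (-0.45). Rxra, the gene of the receptor RXRα, was at 185, 197 and 212 CPM in DMSO and 189, 199 and 205 CPM under TBT and was not called (adjusted p = 0.914, edgeR). Among 21 other nuclear receptors, 3 were called higher and 2 lower (3 and 1 with spike-in scaling), beside 15% and 13.9% of all genes. Pparg was the largest of the rises, at 42.1, 43.7 and 47.3 CPM in DMSO and 56.05, 59.6 and 68.4 CPM under TBT, and Nr4a2, an orphan receptor of the immediate-early kind, fell by 0.61 ± 0.07.

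Transcription factors of early adipogenesis were more often higher than lower. Of 25 tested, 11 were called higher and 3 lower (10 and 1 with spike-in scaling), with a median of 0.16. Ebf2, a factor of brown and beige fat precursors, changed most, at 8.65, 13.05 and 14.7 CPM in DMSO and 30.6, 39.3 and 46.98 CPM under TBT (1.62 ± 0.12). Stat5a rose by 0.92 ± 0.07, Cebpa by 0.76 ± 0.11, and the brown fat regulator Prdm16 by 0.66 ± 0.19. Gata3, which restrains adipogenesis, rose by 0.47 ± 0.12, and Klf5, which promotes it, fell by 0.37 ± 0.05. Cebpb, induced early by hormonal differentiation mixes, was at 0.09 ± 0.05 and not called (adjusted p = 0.189, edgeR), and at 0.13 without TBT library 2 (adjusted p = 0.0345).

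**Figure D3:**
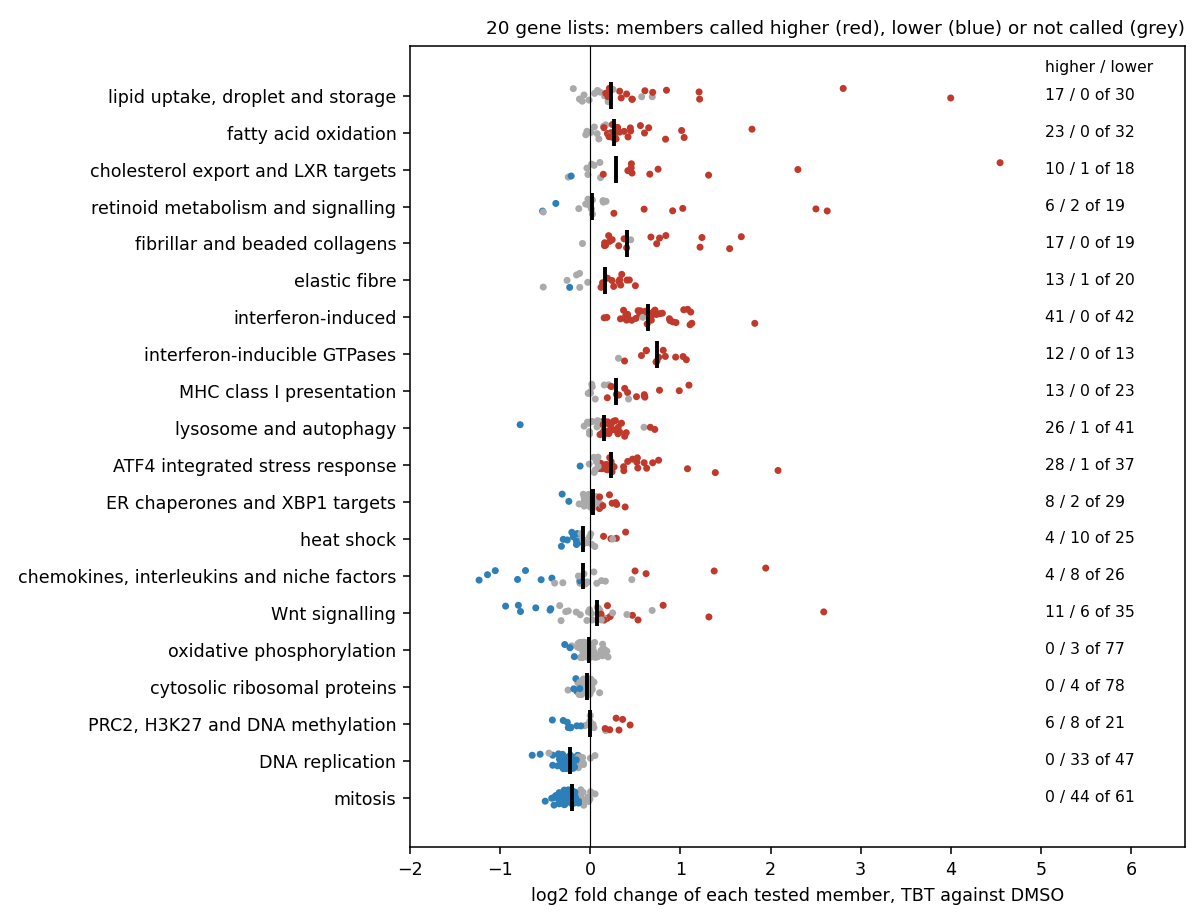
Log2 fold change of TBT against DMSO for each tested member of 20 gene lists, one point per gene, red where called higher, blue where called lower and grey where not called, with a black bar at the list's median. Numbers on the right give members called higher, members called lower and members tested: 41 of 42 interferon-induced genes were called higher and 44 of 61 mitosis genes lower.

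Collagens rose almost as a family. Of 19 tested fibrillar, beaded and related collagens, 17 were called higher and 0 lower (16 and 0 with spike-in scaling, 17 and 0 without TBT library 2), with a median of 0.40. The 3 chains of collagen VI, the beaded microfibril around stromal and fat cells, rose by 0.67 ± 0.04 (Col6a1), 1.22 ± 0.06 (Col6a2) and 0.84 ± 0.05 (Col6a3). Col6a2 stood at 141, 152 and 174 CPM in DMSO and 318, 376 and 382 CPM under TBT. The main fibrillar chains rose less, Col1a1 by 0.16 ± 0.04 and Col3a1 by 0.22 ± 0.04, while Col8a2, Col27a1 and Col28a1 rose by 1.55 ± 0.31, 1.24 ± 0.09 and 1.68 ± 0.44. Col12a1, which lies on the surface of fibrils, rose by 0.74 ± 0.09, and in TBT library 2 it was at 300.5 CPM, above the 187 to 217 CPM of the other TBT libraries. Col15a1, under the filter, had 0 counts in every DMSO library and 31 over the TBT libraries, at least 10.6-fold higher against the floor of 3 counts.

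The rest of the matrix also leaned upward. Of 16 tested basement membrane genes 8 were called higher and 1 lower (9 and 1 with spike-in scaling), among them the linker Nid1 (0.44 ± 0.03) and the chains Col4a1 and Col4a2 (0.29 ± 0.03 and 0.33 ± 0.03). Of 20 elastic fibre genes 13 were called higher and 1 lower (13 and 0), including the cross-linking enzymes Lox (0.41 ± 0.04) and Loxl2 (0.43 ± 0.05). Mmp9, a gelatinase under the filter on low counts, had 60 counts over the DMSO and 24 over the TBT libraries. Matrix proteases and their inhibitors split 12 higher and 3 lower of 27 (12 and 0), with the membrane protease Mmp15 up by 2.27 ± 0.47 and Adamts12 by 0.95 ± 0.23. Timp1, an inhibitor of matrix proteases, fell by 0.25 ± 0.05, a call that ended with spike-in scaling (-0.17). Proteoglycans showed no common direction, with 5 of 17 higher and 4 lower (5 and 1), beside 15% and 13.9% of all genes. Fmod, which shapes collagen fibrils, rose by 1.05 ± 0.32, and its relative Dcn fell from 12.7, 14.9 and 16.9 CPM to 3.76, 5.15 and 7.18 CPM.

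Interferon-induced genes rose as a block. Type I interferons act through a complex that holds STAT2 and IRF9, which binds the interferon-stimulated response element and switches on antiviral genes. Of 42 tested members 41 were called higher and 0 lower, a count that was the same with spike-in scaling and without TBT library 2, and the median was 0.64. The summed level of the list was 3345, 3564 and 3881 CPM in DMSO and 4470.3, 5359.9 and 6285 CPM under TBT, with no overlap. Within the TBT group the spread was wide: the sum lay between 125% of the DMSO median in TBT library 2 and 176% in TBT library 5. The member left uncalled was Sp100, at 0.58 ± 0.24 (adjusted p = 0.0659, edgeR), which was called when DMSO library 2 or TBT library 4 was left out.

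Effectors, sensors and the signalling factors themselves were all among the members that rose. The oligoadenylate synthetases Oas2 and Oas3, sensors of double-stranded RNA, rose by 1.11 ± 0.27 and 1.12 ± 0.27. Ifi44 stood at 49.99, 54.3 and 61.03 CPM in DMSO and 81.9, 116 and 163 CPM under TBT, with the lowest TBT library above the highest DMSO library. Usp18, which removes ISG15 from proteins and damps the interferon receptor, was at 56.7, 70.7 and 76.6 CPM in DMSO and 98.1, 138 and 166 CPM under TBT. The transcription factors Stat2 and Irf7 rose by 0.63 ± 0.07 and 0.88 ± 0.10. Isg15, the ubiquitin-like modifier, rose by 0.40 ± 0.08, from a median of 57.4 to 78.8 CPM. Parp10, an ADP-ribosyltransferase outside the list, showed the same wide spread, with 49.4, 62.7 and 70.96 CPM in DMSO and 78.9, 145 and 198 CPM under TBT.

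Promoters of 2 interferon-induced genes are shown with the core of the response element in capitals (GAAANNGAAA, either strand), which 3.99% of all genes in the promoter table hold. They are the 250 bases before the start of Stat2 (chr10:128270248-128270497, forward strand) and of Rsad2 (chr12:26456453-26456702, reverse strand, the antiviral protein viperin), from RefSeq, GRCm38.p6. They were taken as the 2 members with the smallest adjusted p whose window held those letters. The promoter table had entries for 30 of the 42 members (71.4%), under the 80% taken here as the least for a share over a list.
Stat2: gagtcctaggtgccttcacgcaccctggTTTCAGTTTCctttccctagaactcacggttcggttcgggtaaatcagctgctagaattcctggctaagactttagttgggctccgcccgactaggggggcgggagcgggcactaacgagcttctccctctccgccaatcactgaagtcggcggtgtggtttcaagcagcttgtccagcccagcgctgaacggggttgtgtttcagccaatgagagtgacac
Rsad2: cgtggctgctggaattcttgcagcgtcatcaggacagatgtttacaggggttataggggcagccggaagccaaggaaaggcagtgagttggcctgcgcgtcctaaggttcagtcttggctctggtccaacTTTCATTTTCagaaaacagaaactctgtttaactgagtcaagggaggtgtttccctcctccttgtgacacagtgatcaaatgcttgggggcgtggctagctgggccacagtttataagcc
The capitals begin at position -222 of Stat2 and -120 of Rsad2, counted from the start. Stat2 rose by 0.63 ± 0.07 and Rsad2 by 0.61 ± 0.08.

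Other immune programmes were higher as well. Interferon-inducible GTPases, which attack vacuoles that hold pathogens, had 12 of 13 members called higher and 0 lower under both scalings, 14 of 14 tested without TBT library 2, with a median of 0.74. Iigp1 was at 40.00, 48.2 and 55.8 CPM in DMSO and 63.7, 95.96 and 139.6 CPM under TBT, and Irgm2 and Igtp rose by 0.83 ± 0.11 and 0.81 ± 0.11. In antigen presentation by MHC class I, 13 of 23 were called higher and 0 lower (16 and 0 with spike-in scaling, and likewise without TBT library 2). These were led by the peptide transporter Tap1 (1.10 ± 0.12, from a median of 42.6 to 100.1 CPM), the transactivator Nlrc5 (0.99 ± 0.19) and the immunoproteasome subunits Psmb9 and Psmb8 (0.77 ± 0.18 and 0.60 ± 0.17). The summed level of the MHC class I list overlapped, at 2313 to 2469 CPM in DMSO and 2266 to 2840 CPM under TBT. Its lowest value, in TBT library 2, lay under every DMSO library. No tested member of the interferon, GTPase and MHC class I lists differed between TBT and AGN194204 past the threshold, a contrast in which 0.407% of all genes were called higher and 0.439% lower, and 42 of 42, 13 of 13 and 14 of 23 were higher under TBT than under rosiglitazone, a contrast with 15.2% of all genes called higher. The 15 macrophage and leukocyte markers summed to 54.97 to 62.2 CPM in DMSO and 57.5 to 69.03 CPM under TBT, with 3 past the filter, 0 called higher and 0 lower, and the 15 of T, NK and B cells to 7.91 to 17.4 CPM in DMSO and 10.9 to 14.7 CPM under TBT, with 2 past the filter and none called. Tyrobp and Cd3g were at 0 counts in all 12 libraries, and the part of such cells in these rises was not tested.

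Complement and coagulation genes split 7 higher and 2 lower of 15 under both scalings. C4b, a central component of the classical pathway, rose by 0.77 ± 0.22. C1qtnf1, a secreted relative of complement C1q, stood at 22.7, 24.8 and 29.2 CPM in DMSO and 50.9, 58.98 and 63.7 CPM under TBT. The falls were those of C3, at 6.08, 10.3 and 13.3 CPM in DMSO and 2.51, 4.73 and 7.71 CPM under TBT, and of F2rl1, a receptor cleaved by proteases, which fell by 1.87 ± 0.27.

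**Figure D4:**
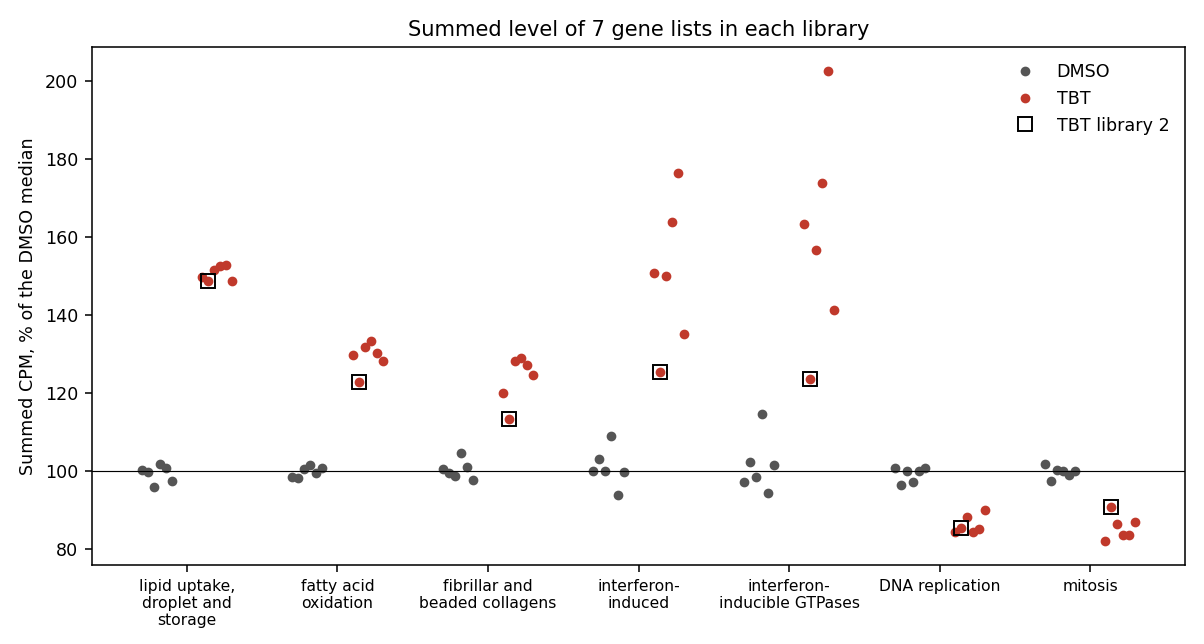
Summed CPM of all members of 7 gene lists in each library, as a percentage of the DMSO median of that list (line at 100%), for DMSO (grey) and TBT (red) libraries, with TBT library 2 boxed. The groups do not overlap in any of the 7, the interferon lists spread most within TBT, and TBT library 2 is the TBT library nearest to DMSO for 4 of the 5 lists that rose and for mitosis, while for lipid uptake it lies within 149% to 153%.

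Secreted signals went in both directions. Of 26 tested chemokines, interleukins and niche factors, 4 were called higher and 8 lower (5 and 5 with spike-in scaling, 6 and 7 without TBT library 2). Over all genes 15% were called higher and 13.9% lower. Tnfsf11, which encodes RANKL, the signal that makes osteoclasts, fell by 1.23 ± 0.26, from a median of 6.56 to 2.45 CPM. The cytokines of the gp130 family Il11 and Lif fell by 1.14 ± 0.17 and 0.72 ± 0.19, and the alarmin Il33 stood at 33.2, 36.8 and 40.8 CPM in DMSO and 12.6, 16.9 and 23.3 CPM under TBT. Its receptor Il1rl1 fell by 0.54 ± 0.04, from a median of 185 to 124 CPM, with no overlap. The rises were those of the chemokine Ccl9 (7.46, 8.84 and 11.6 CPM in DMSO and 30.6, 35.3 and 40.03 CPM under TBT), the lymphocyte cytokine Il15 (1.38 ± 0.26), the interferon-induced chemokine Cxcl10 (0.62 ± 0.09) and stem cell factor, Kitl (0.50 ± 0.08). Cxcl12, the chemokine that keeps blood stem cells in the marrow, was at 343, 356 and 379.6 CPM in DMSO and 332, 385 and 394 CPM under TBT and was not called, while without TBT library 2 it was at 0.11 (adjusted p = 0.0236, edgeR).

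Growth factors split 11 higher and 8 lower of 35 (10 and 3 with spike-in scaling), beside 15% and 13.9% of all genes. Fgf21, a metabolic hormone, rose by 2.08 ± 0.22 from a median of 2.53 CPM, and Igf1 by 0.63 ± 0.07. Angptl7 stood at 18.99, 21.3 and 24.5 CPM in DMSO and 3.76, 6.97 and 8.60 CPM under TBT, and Pgf (placental growth factor) and Hgf fell by 1.28 ± 0.36 and 0.41 ± 0.08. In TGF-β, activin and BMP signalling 9 of 44 were higher and 9 lower (8 and 4), beside 15% and 13.9% of all genes. The secreted antagonists Fst and Grem1 fell by 1.53 ± 0.36 and 0.50 ± 0.04, while the stress-induced Gdf15 rose by 1.39 ± 0.13, Tgfb2 by 0.69 ± 0.08 and the inhibitory factor Smad6 by 0.58 ± 0.06.

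Wnt signalling, which favours bone over fat, had 11 of 35 members higher and 6 lower (9 and 2 with spike-in scaling). The secreted antagonist Dkk2 was at 79.4, 83.4 and 91.6 CPM in DMSO and 38.1, 44.7 and 49.1 CPM under TBT, a fall of 0.94 ± 0.07. Wnt7b, a ligand under the filter on low counts, had 57 counts over the DMSO and 11 over the TBT libraries. A pair of genes that β-catenin signalling induces in many cells also fell, Axin2 by 0.60 ± 0.17 and Lef1 by 0.44 ± 0.09; with spike-in scaling they stood at -0.51 (adjusted p = 0.0803) and -0.34 (adjusted p = 0.0234, edgeR). Among the rises were the ligand Wnt11 (1.32 ± 0.36), the receptors Fzd5 and Fzd8 (0.81 ± 0.10 and 0.47 ± 0.06), and Wisp2, at 8.69, 12.2 and 16.95 CPM in DMSO and 71.98, 76.6 and 90.7 CPM under TBT. Bone genes showed 7 of 17 higher and 3 lower (7 and 1). Runx2, the master regulator, was at 132, 153 and 161 CPM in DMSO and 142, 152 and 156 CPM under TBT and was not called, while the homeobox genes Dlx3 and Msx2 rose by 1.56 ± 0.31 and 1.02 ± 0.27 and the mineralisation phosphatase Phospho1 by 1.49 ± 0.19.

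Most genes of DNA replication and mitosis were lower, by small steps, when libraries were scaled to gene counts, and few with spike-in scaling. For replication 0 of 47 were called higher and 33 lower, and for mitosis 0 of 61 and 44, with medians of -0.22 and -0.21. With spike-in scaling 6 of 47 and 6 of 61 were called lower, with medians of -0.13 and -0.12. Under that scaling 2.34% of all genes were called lower, and the median of all genes was 0.08. The summed level of the mitosis list was 9867, 10120.1 and 10297 CPM in DMSO and 8295, 8612 and 9187 CPM under TBT, with no overlap. Without TBT library 2 the counts were 32 and 43. Mcm3, a subunit of the replicative helicase, stood at 335, 351 and 371 CPM in DMSO and 268, 286 and 302 CPM under TBT, and the origin protein Orc1 and the helicase loader Cdc6 fell by 0.64 ± 0.14 and 0.42 ± 0.07, the latter not called with spike-in scaling (-0.32). Pcna, the sliding clamp, fell by 0.14 ± 0.05, a call that ended with spike-in scaling (-0.06). Cenpf, a kinetochore protein, was at 236, 253 and 261 CPM in DMSO and 155, 171 and 213 CPM under TBT, and Mki67 fell by 0.27 ± 0.04, or -0.17 and not called with spike-in scaling. Among p53 targets and cell cycle inhibitors 8 of 34 were higher and 0 lower under both scalings, and 9 and 2 without TBT library 2. Cdkn1c rose by 0.79 ± 0.19 and Btg2 by 1.06 ± 0.09, and Cdkn1a (p21) was not called at 0.11 ± 0.08.

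Promoters of 4 of these genes are shown, chosen as the 2 members of each list with the smallest adjusted p whose window held the motif. They are Uhrf1 (chr17:56303087-56303336, forward strand) and Cdc6 (chr11:98907901-98908150, forward strand), with the E2F letters GCGGGAA of S-phase genes in capitals, and Smc2 (chr4:52438971-52439220, forward strand) and Mki67 (chr7:135716380-135716629, reverse strand), with the letters TTTGAA of the cell cycle homology region in capitals (either strand, RefSeq, GRCm38.p6).
Uhrf1: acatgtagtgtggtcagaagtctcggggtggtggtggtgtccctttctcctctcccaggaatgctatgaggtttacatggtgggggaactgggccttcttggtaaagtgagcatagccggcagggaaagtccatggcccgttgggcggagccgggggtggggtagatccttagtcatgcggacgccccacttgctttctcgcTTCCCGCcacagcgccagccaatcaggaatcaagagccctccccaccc
Cdc6: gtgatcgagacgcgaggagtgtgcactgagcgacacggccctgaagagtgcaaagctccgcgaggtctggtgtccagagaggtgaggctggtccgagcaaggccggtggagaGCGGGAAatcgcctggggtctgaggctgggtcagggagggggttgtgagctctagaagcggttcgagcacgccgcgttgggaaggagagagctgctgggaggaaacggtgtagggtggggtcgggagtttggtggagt
Smc2: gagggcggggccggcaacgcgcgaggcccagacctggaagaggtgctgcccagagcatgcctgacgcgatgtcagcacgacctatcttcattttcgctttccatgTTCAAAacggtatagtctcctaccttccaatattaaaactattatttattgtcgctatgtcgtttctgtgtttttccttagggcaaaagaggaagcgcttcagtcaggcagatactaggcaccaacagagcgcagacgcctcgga
Mki67: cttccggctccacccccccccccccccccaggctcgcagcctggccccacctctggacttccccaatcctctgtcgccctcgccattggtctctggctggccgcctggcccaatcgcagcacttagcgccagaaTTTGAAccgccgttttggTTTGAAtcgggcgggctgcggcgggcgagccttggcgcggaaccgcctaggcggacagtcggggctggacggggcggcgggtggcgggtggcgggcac
The capitals begin at -48, -138 and -145 in the first 3, and at -116 and -98 in Mki67, counted from the start in the promoter table. The Cdc6 window lies inside the RefSeq gene span (chr11:98907709-98923942), downstream of that span's own start. The Mki67 window overlaps its gene span in part (chr7:135689784-135716450). GCGGGAA was in the window (250 bases before to 50 after a start) of 13 of 38 replication genes with an entry (34.2%), of 10.2% of tested genes and of 5.29% of all genes in the table. TTTGAA was in that of 37 of 51 mitosis genes (72.5%), against 13.8% and 20.2%. Over all genes called lower the shares were 13.3% and 17.1%. A match describes the sequence and says nothing of binding.

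Genes for the Polycomb mark and for DNA methylation were split. Of 21 tested 6 were higher and 8 lower (4 and 1 with spike-in scaling, 4 and 8 without TBT library 2). Over all genes 15% were called higher and 13.9% lower. Ezh2, the methyltransferase of Polycomb complex 2, stood at 146, 150.1 and 162 CPM in DMSO and 116, 121 and 135 CPM under TBT, and its partners Eed and Suz12 fell by 0.24 ± 0.06 and 0.15 ± 0.04; none of the 3 was called with spike-in scaling (-0.21, -0.15 and -0.05). Ezh1, the form used by resting cells, rose by 0.36 ± 0.09, and the H3K27 demethylase Kdm6b by 0.44 ± 0.06. The maintenance methyltransferase Dnmt1 and its guide Uhrf1 fell by 0.22 ± 0.03 and 0.21 ± 0.03, or -0.13 and -0.13, not called, with spike-in scaling. Writers and erasers of H3K4 methylation showed 0 of 24 higher and 5 lower, which became 0 and 0 with spike-in scaling.

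Of the stress responses, that of ATF4 stood out. ATF4 is the transcription factor of the integrated stress response, which induces amino acid transporters and synthetic enzymes. Of 37 tested targets 28 were called higher and 1 lower (28 and 0 with spike-in scaling), with a median of 0.23. Trib3, a pseudokinase, was at 49.99, 51.8 and 57.3 CPM in DMSO and 77.4, 86.9 and 99.1 CPM under TBT, and Chac1, which degrades glutathione, rose by 0.53 ± 0.05. Ddit3 (CHOP) and Atf3 rose by 0.37 ± 0.06 and 0.60 ± 0.19, Slc7a3, a carrier of basic amino acids, by 1.08 ± 0.10, the mitochondrial folate enzyme Aldh1l2 by 0.52 ± 0.04, and Atf4 itself by 0.13 ± 0.04. In all, 7 members were also higher under TBT than under AGN194204 past the threshold and 0 lower, beside 0.407% of all genes called higher in that contrast, among them Gdf15 (0.64 ± 0.12) and Trib3 (0.34 ± 0.06). The letters TGATGNAAT, to which ATF4 binds with a C/EBP partner, were in the promoter window of 4 of the 30 members with an entry, 81.1% of the list (13.3%), against 1.08% of all genes in the table (both strands).

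The other stress programmes moved less or in both directions. Endoplasmic reticulum chaperones and XBP1 targets showed 8 of 29 higher and 2 lower (8 and 0 with spike-in scaling), and Hspa5, the main chaperone, was not called at 0.04 ± 0.04. Heat shock genes showed 4 of 25 higher and 10 lower, which became 4 and 0 with spike-in scaling. Among NRF2 targets and glutathione genes 10 of 39 were higher and 3 lower (10 and 0). Haem oxygenase, Hmox1, was at 169.6, 173 and 180.3 CPM in DMSO and 225, 272 and 285 CPM under TBT (0.60 ± 0.04), and the microsomal transferases Mgst3 and Mgst1 rose by 1.38 ± 0.11 and 1.06 ± 0.08, while Nqo1, a standard NRF2 target, fell by 0.20 ± 0.07, or -0.11 and not called with spike-in scaling. Of 16 metal-response genes 3 were higher and 2 lower (4 and 1), beside 15% and 13.9% of all genes. The metal-binding protein Mt2 rose by 0.52 ± 0.10.

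Lysosome and autophagy genes rose in number. Of 41 tested 26 were called higher and 1 lower (21 and 1 with spike-in scaling), with a median of 0.16, among them the protease Ctsd (0.21 ± 0.04), the glucosidase Gaa (0.40 ± 0.05), the autophagy receptor Sqstm1 (0.19 ± 0.04) and the membrane glycoprotein Gpnmb (71.8, 86.4 and 91.2 CPM in DMSO and 125, 135 and 142 CPM under TBT). The exception was Mitf, a transcription factor of lysosome genes, which fell by 0.78 ± 0.09, from a median of 43.7 to 25.7 CPM. Cytosolic ribosomal proteins showed 0 of 78 higher and 4 lower, which became 1 and 0 with spike-in scaling and 0 and 1 without TBT library 2. Glycolysis and hypoxia genes showed 8 of 43 higher and 6 lower (7 and 1), near the 15% and 13.9% of all genes, with Hif1a up by 0.40 ± 0.04 and Hk2 down, a fall of 0.39 ± 0.06. Ahr, the receptor of dioxins, fell by 1.18 ± 0.18, from a median of 12.6 to 5.31 CPM, while Cyp1b1, one of its targets, rose by 0.54 ± 0.04.

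Surface markers by which MSCs are often recognised went both ways, with 3 of 16 higher and 5 lower (2 and 4 with spike-in scaling). Over all genes 15% were called higher and 13.9% lower. Cd44, the hyaluronan receptor, was at 386, 395 and 416 CPM in DMSO and 291, 301 and 309.7 CPM under TBT, with no overlap, and Thy1 and Alcam fell by 0.58 ± 0.07 and 0.73 ± 0.14. The intermediate filament gene Nes fell by 0.43 ± 0.03, from a median of 789 to 593 CPM, whereas Pdgfrb, a receptor of pericytes, rose by 0.35 ± 0.05. Integrins, cadherins and matrix ligands showed 6 of 33 higher and 9 lower, beside the same shares of all genes. With spike-in scaling the counts were 5 and 5, beside 14.4% and 2.34% of all genes. The integrin subunits Itgb7 and Itgb8 fell by 1.05 ± 0.16 and 0.88 ± 0.21, and Postn and Thbs2, matrix proteins that bind integrins, rose by 1.66 ± 0.22 and 0.77 ± 0.06. Itga2, a collagen receptor under the filter, had 46 counts over the DMSO and 10 over the TBT libraries.

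Genes of the contractile and stretch-responsive state leaned upward by small amounts. Of 26 YAP and TAZ targets 11 were called higher and 2 lower (10 and 0 with spike-in scaling), and of 19 smooth muscle genes 9 and 0 (10 and 0). Ctgf and Cyr61, secreted matrix-associated proteins induced by YAP, rose by 0.33 ± 0.04 and 0.22 ± 0.04, and Fjx1, another target, by 1.03 ± 0.14. Among contractile genes Lmod1, which builds actin filaments, rose by 1.12 ± 0.10, calponin Cnn1 by 0.24 ± 0.06 and smooth muscle actin Acta2 by 0.17 ± 0.05, from a median of 434 to 515 CPM.

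Of guidance cues, first known from growing axons, 11 of 35 were higher and 6 lower (9 and 2 with spike-in scaling), beside 15% and 13.9% of all genes. The largest rise was that of Nrxn2, a presynaptic adhesion protein, at 0.424, 1.03 and 1.88 CPM in DMSO and 5.79, 7.51 and 9.21 CPM under TBT. Nrxn2 passed the filter on low counts through the treated groups, so its call is in part built in by the filter. The semaphorins Sema4a, Sema3f and Sema3e rose by 1.21 ± 0.26, 1.01 ± 0.15 and 0.99 ± 0.11, and Plxnd1, a receptor of Sema3e, by 0.42 ± 0.10. Slit2 and Plxnb1, a secreted cue and a semaphorin receptor, fell by 0.46 ± 0.05 and 0.68 ± 0.11. In Notch and Hedgehog signalling 5 of 19 were higher and 2 lower (4 and 1), beside the same 15% and 13.9% of all genes. The ligand Dll1 rose by 1.03 ± 0.24 and the co-receptor Boc by 0.37 ± 0.11, and the Notch-modifying enzyme Lfng fell by 0.47 ± 0.12.

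Among immediate early genes, which respond to stimuli without new protein, 12 of 27 were higher and 2 lower (13 and 1 with spike-in scaling). Egr1 rose by 0.35 ± 0.05, Klf2 by 0.36 ± 0.05 and Myc by 0.24 ± 0.04, while Dusp6, a phosphatase that reports ERK activity, stood at 88.2, 91.9 and 107 CPM in DMSO and 65.2, 70.8 and 76.8 CPM under TBT, a fall of 0.43 ± 0.05. Circadian genes showed 4 of 17 higher and 2 lower (4 and 0 with spike-in scaling, 3 and 3 without TBT library 2), beside 15% and 13.9% of all genes. The output factor Dbp rose by 0.47 ± 0.10 and the repressor Cry2 by 0.43 ± 0.07. Targets of the glucocorticoid and aryl hydrocarbon receptors showed 7 of 14 higher and 2 lower (6 and 2). Zbtb16 (PLZF) rose by 1.48 ± 0.27 and Sgk1 by 0.38 ± 0.04, whereas Fkbp5, the target most often read for glucocorticoids, fell by 0.39 ± 0.06. Of coactivators and corepressors of nuclear receptors 2 of 25 were higher and 5 lower (2 and 0), near the 28.9% of all genes called, and Ncoa1 rose by 0.34 ± 0.09.

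Some of the largest rises were of enzymes and other proteins not described above. A pair of carbonic anhydrases, which hydrate carbon dioxide, rose from low levels: Car3, also on the list of mature adipocyte markers, was at 0.936, 2.22 and 3.61 CPM in DMSO and 52.5, 56.9 and 62.99 CPM under TBT and Car2 at 0.424, 1.76 and 2.45 CPM in DMSO and 9.83, 13.3 and 17.4 CPM under TBT. The phosphodiesterase Pde1b, which degrades cyclic nucleotides under calcium control, was at 0.468, 0.810 and 1.96 CPM in DMSO and 14.3, 18.9 and 24.4 CPM under TBT, and its relative Pde2a rose by 1.91 ± 0.25. Pde7b went the other way, a fall of 1.03 ± 0.25. Of 14 tested phosphodiesterases 4 were higher and 3 lower (4 and 1 with spike-in scaling), beside 15% and 13.9% of all genes. Among genes with a mean of 100 CPM and over, Wnk4, a kinase that controls ion transport, stood at 39.3, 43.8 and 51.6 CPM in DMSO and 179.9, 185 and 192 CPM under TBT. Synpo, an actin-binding protein, stood at 45.1, 50.9 and 65.9 CPM in DMSO and 152, 170.5 and 181 CPM under TBT. Both lay under 100 CPM in every DMSO library. Lctl, a klotho-like protein, and the membrane serine protease Tmprss11f rose by 2.84 ± 0.23 and 2.46 ± 0.17. The groups did not overlap for Car3, Car2, Pde1b, Pde2a, Wnk4 or Synpo. Car3, Car2 and Pde1b did not reach the filter's minimum in every DMSO library and passed it through the treated groups. Their calls and their lack of overlap are therefore in part built in by the filter.

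The largest falls were of genes with few reads. Ptpn22, a tyrosine phosphatase best known from lymphocytes, was at 25.7, 28.4 and 35.5 CPM in DMSO and 7.05, 10.8 and 11.9 CPM under TBT, and Ass1, which makes argininosuccinate for arginine synthesis, at 6.79, 7.55 and 11.5 CPM in DMSO and 1.24, 1.94 and 3.44 CPM under TBT. Scg2, a granin of secretory granules, was at 7.95, 11.5 and 12.9 CPM in DMSO and 0.376, 2.50 and 3.90 CPM under TBT. Mcpt8, a basophil protease, fell by 2.45 ± 0.40. It was 1 of 2 among 13 basophil and mast cell markers past the filter, and the list summed to 6.36 to 9.94 CPM in DMSO and 3.44 to 6.58 CPM under TBT, with Fcer1a, Cpa3 and Kit at 0 counts. Ramp3, which modifies peptide hormone receptors, fell by 1.86 ± 0.33, the immune checkpoint receptor Tigit by 1.60 ± 0.24, alpha-fetoprotein (Afp) by 1.59 ± 0.39 and Rcan2, a regulator of calcineurin, by 1.47 ± 0.25. Among genes at 100 CPM and over the falls were shallower: Ank3, which anchors membrane proteins to the cytoskeleton, was at 182, 203 and 225 CPM in DMSO and 119, 130.4 and 148 CPM under TBT, and Cav1, the coat protein of caveolae, at 198, 214 and 230.4 CPM in DMSO and 133, 144 and 158 CPM under TBT. Hmga2, a chromatin protein of undifferentiated mesenchymal cells, fell by 0.48 ± 0.04 and the microtubule protein Map1b by 0.48 ± 0.05, and Rasa1, which switches off Ras, Fam131b and the tetraspanin Tspan11 by 0.52 ± 0.05, 0.48 ± 0.05 and 0.48 ± 0.05. All of these falls remained called with spike-in scaling.

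Beside the other ligands of the series, given at 100 nM and not at the 50 nM of TBT, the TBT response differed from that of AGN194204 in few genes and from that of rosiglitazone in many. TBT against AGN194204, a synthetic RXR agonist, gave 51 genes higher and 55 lower, and TBT against rosiglitazone, a PPARγ agonist, gave 1908 and 1690. Of the 156 genes that rose by 2-fold or more, 12 also differed between TBT and AGN194204 and 137 between TBT and rosiglitazone, and of the 44 that fell this far 4 and 36. A gene not called between TBT and AGN194204 was not shown to be equal in the 2.

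In all 3 contrasts 48 genes were higher and 20 lower under TBT. Fabp4 had medians of 1.96 CPM in DMSO, 17.6 under rosiglitazone, 21.1 under AGN194204 and 36.8 under TBT, with differences of 0.75 ± 0.11 from AGN194204 and 0.97 ± 0.11 from rosiglitazone. Pde1b had medians of 0.810 CPM in DMSO, 4.32 under rosiglitazone, 10.96 under AGN194204 and 18.9 under TBT (0.89 ± 0.17 and 2.00 ± 0.19). Postn had medians of 2.95 CPM in DMSO, 3.54 under rosiglitazone, 4.96 under AGN194204 and 10.8 under TBT. Slc7a3 and Cdsn, a protein of cell junctions in skin, exceeded AGN194204 by 0.71 ± 0.10 and 0.66 ± 0.15 and rosiglitazone by 1.01 ± 0.10 and 0.93 ± 0.15. In the other direction the complement component C3 had medians of 10.3 CPM in DMSO, 8.25 under rosiglitazone, 10.5 under AGN194204 and 4.73 under TBT, and was lower under TBT by 1.13 ± 0.25 against AGN194204 and 0.82 ± 0.25 against rosiglitazone. Tnfaip2, an NF-κB target, had medians of 25.4 CPM in DMSO, 25.8 under rosiglitazone, 26.4 under AGN194204 and 16.2 under TBT. Ptpn22 was lower by 0.81 ± 0.16 and 1.06 ± 0.15, the transporter Slco4a1 by 0.96 ± 0.18 and 0.56 ± 0.19, and Gchfr, which regulates tetrahydrobiopterin synthesis, by 0.51 ± 0.12 and 0.68 ± 0.12.

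**Figure D5:**
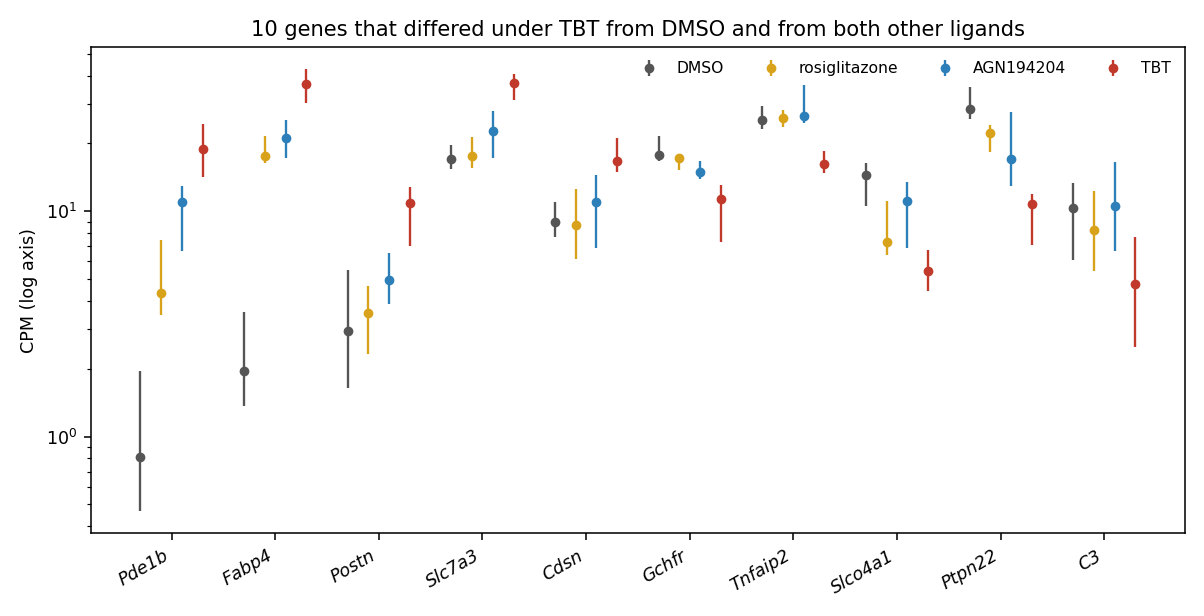
Median CPM (points, log axis) with the lowest and highest library (bars) of 10 genes in DMSO, rosiglitazone, AGN194204 and TBT, 6 libraries each. The genes were chosen for being called in the same direction under TBT against all 3 other groups, so their separation is a description; in Fabp4 and Pde1b the medians of the other ligands lie between those of DMSO and TBT, and in C3 and Tnfaip2 the TBT median is the lowest of the 4.

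The authors' deposited table of differing H3K4me3 peaks, from separate libraries of cells given DMSO or TBT, was read at the promoters of tested genes, of which 9028 had an entry in the promoter table. Of 246 peaks 36 overlapped a promoter window. The peaks higher under TBT in the authors' deposited table covered promoters of 6 tested genes, Abca1, Ifit3, Mmp15, Thbs2, Phf11d and Col6a1, and all 6 were called higher in RNA, beside 15% of all genes. These genes, and the next, were named after their values were seen. Peaks lower under TBT in that table covered promoters of 5 tested genes, of which Il11 and Tor4a were called lower in RNA (fell by 1.14 ± 0.17 and 0.40 ± 0.14, the latter not called with spike-in scaling) and Fbln2 higher (0.12 ± 0.03). For H3K27me3 the authors' deposited table held 4329 peaks, of which 565 overlapped a promoter window. Of 215 tested genes whose promoter peak was higher under TBT 34 were called higher and 36 lower in RNA, and of 57 whose peak was lower 12 and 10, beside 15% and 13.9% of all genes. Col6a1, higher in RNA and in H3K4me3, also had an H3K27me3 promoter peak higher under TBT. Its log2 concentration was -0.19 in DMSO and 6.34 under TBT (authors' DiffBind FDR 2.75e-09).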

How the data were processed

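RNA of mouse marrow stromal cells was sequenced in 24 libraries, 4 groups of 6. The submitters' processing notes name FastQC, STAR, SAMtools and DESeq2, with the builds GRCm38 and mm10. The sources used here name neither the counting program, its strand setting nor any version. A gene and an overlapping or antisense neighbour therefore cannot be told apart. The authors deposited whole-number counts per gene symbol. The 92 spike-in rows and the rows of uncounted reads (outside genes in 20.9% to 24.3%, ambiguous in 1.85% to 2.02% of reads) were left out, and 27 symbols that had been turned into dates stayed in as deposited. For the ChIP comparison the authors' deposited log2 concentrations and p-values (FDR) per peak were used as given, from DiffBind per the submitters' processing notes. All 24 RNA libraries entered the fit.

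Genes were kept by filterByExpr (minimum count 10), scaled by TMM and tested with edgeR 4.0.16 (R 4.3.3; quasi-likelihood test, contrasts from one fit, Benjamini-Hochberg over 12529 of 45317 genes). A gene low in one group could pass the filter through the groups where it was higher, and such calls are in part built in by the filter. The biological coefficient of variation was 5.24%. On data simulated from these libraries the test recovered 50.7%, 82.4% and 95.1% of genes changed 1.2-, 1.5- and 2-fold among 12425 genes, with 6 false calls. Far fewer genes were changed in that simulation than the 28.9% called here, so these shares need not hold for this comparison. CPM in the text use library sizes scaled by TMM, without a prior count. Gene counts of 4023214 to 5347365 per library put the floor of 3 counts over a group at 0.110 CPM (DMSO) and 0.113 CPM (TBT), counting error only.

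The 47 gene lists, 12 marker lists and the genes named were chosen with earlier results of these data known, so list counts are descriptions. Genes were named as the 12 largest non-overlapping rises and falls, the 10 largest at 100 CPM and over, the first 4 called members of each list by adjusted p, the 5 rises and 5 falls called against all 3 other groups, and 16 receptor and target genes. Of 223 tested genes in the text 88 lie outside this rule and were chosen after their values were seen. Promoters are from RefSeq (GRCm38.p6), where 9028 tested symbols had an entry. Alternatives were median-ratio and spike-in scaling, DESeq2 1.42.0, limma-voom 3.58.1, glmTreat, other filters, the 12 libraries alone, a replicate block and each library left out.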

Additional observations from a re-analysis of the deposited data

Results flagged for a closer look

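Among 456 groups of 6 values, those of each tested gene in the text and of the library measures, 20 held a single library far from the other 5 by Dixon's test, where chance flags about 1 in 20 groups. TBT library 2 was that library in 5: Col12a1 (301 CPM, others 187 to 217), Map1b (342, others 269 to 295), Cdc6 (55.8, others 43.1 to 45.2), Cxcl12 (332, others 376 to 394) and the share of ambiguous reads (1.85%, others 1.95% to 2.02%). In the remaining TBT libraries the gap was that of C4b in library 1 (10.7 CPM, others 6.22 to 7.31), Msx2 in library 3 (8.78, others 4.13 to 5.41), Il1rl1 in library 5 (134, others 121 to 124), Zbtb16 in library 5 (9.83, others 5.02 to 6.55), Kitl in library 6 (63.96, others 67.5 to 69.5) and Plin4 in library 6 (235, others 266 to 281).

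In DMSO the library apart was library 1 for Ebf2 (8.65 CPM, others 12.7 to 14.7) and library 3 for Isg15 (67.1, others 52.1 to 57.7), Psmb8 (6.02, others 8.23 to 9.27) and Fkbp5 (105, others 121 to 131). It was library 4 for Oas2 (9.72, others 2.76 to 4.51), Loxl2 (122, others 101 to 109) and Hsd17b7 (44.98, others 50.8 to 52.4), library 5 for Col27a1 (17.2, others 26.2 to 28.8) and library 6 for Fgf21 (5.73, others 1.78 to 2.74). Each of these genes other than Cxcl12 was called, with its direction the same in every leave-one-out fit.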

How the results depend on the processing

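The counts of 1878 genes higher and 1745 lower under TBT stayed within 1.5 times under median-ratio scaling, DESeq2, limma-voom, no filter, a minimum count of 50 and the fit of 12 libraries alone. With spike-in scaling 293 were lower, and a test against a 1.2-fold change (glmTreat) left 506 higher and 167 lower, since it asks for a larger change. The cause of the spike-in difference was not tested. Leaving out 1 library at a time gave 1692 to 1998 higher and 1498 to 1907 lower. Of 212 called genes in the text none changed direction in a fit that tested it, and all were tested in each except with a minimum count of 50 (176) and in the fit of 12 libraries (207), which ended the call of Pcna. Of them 207 kept their call in all 12 leave-one-out fits. Pcna and Tor4a each lost it in 6 of them, Nqo1 in 2 (without DMSO library 5 or 6), Atf4 in 1 (without DMSO library 2) and Crabp2 in 1 (without TBT library 2). Spike-in scaling ended 13 calls and glmTreat 57. Of the uncalled genes Rxra stood at -0.01 and turned to 0.075 with spike-in scaling, with -0.028 to 0.012 over the leave-one-out fits, and Runx2 stood at 0.01, with -0.028 to 0.026. The list counts under other scalings and without TBT library 2, the latter chosen after the data were seen, stand beside the results.

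TBT and DMSO libraries share replicate numbers. Correlations of same-numbered libraries' deviations lay between -0.0079 and 0.097, and 2 of 6 TBT libraries correlated best with their own number. Library 2 was nevertheless the deepest, with the lowest mitochondrial share, in each treatment group. Whether a number marks libraries handled together is not given in the labels. With the replicate number as a block 1999 genes were higher and 1883 lower, and no called gene of the text lost its call. In the shorter promoter window, 150 bases before to 50 after the start, GCGGGAA was in 34.2% of the replication promoters and TTTGAA in 72.5% of the mitosis promoters, as in the longer one.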
